A study of Mus musculus with 22 samples.

Results

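The genes described here are 6 factors tied to the identity or origin of B1 cells: Arid3a, Bhlhe41, Zbtb32, Nfatc1, Ahr and Lin28b. They were chosen by name, with earlier results of these data known. All 6 were found among the 52636 gene identifiers of the count table after Ensembl identifiers were matched to gene symbols. Expression was measured in 22 mouse lymphoma libraries from 15 mice. The levels are counts per 1000000 library counts (CPM). The comparisons ask whether these genes differ between tumours with an immunophenotype resembling mantle cell lymphoma (MCL-like) and tumours without it (non-MCL).

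All mice had a mixed 129/C57Bl6 background, floxed p53 alleles (p53 fl/fl) and an Mb1Cre tg/+ transgene. Mb1 (Cd79a) is a gene of the B lineage, so Cre deletes p53 in B lineage cells, and this deletion was common to all groups, since no library came from a mouse without it. MCL-like primary tumours came from 4 mice that also carried a homozygous cyclin D2 transgene in the Rosa26 locus (R26-Ccnd2 tg/tg). Ccnd2 non-MCL primary tumours came from 3 mice of the same genotype. The p53-only tumours, all non-MCL, came from 6 mice without the Ccnd2 transgene and gave 7 libraries, of which replicates 2 and 5 were from 1 mouse. MCL-like transplants (6 libraries from 4 primary mice) and transplants labelled Ccnd2 non-MCL (2 libraries from 1 primary mouse) were grown in NSG mice, hosts that lack their own T, B and NK cells. The titles of the 6 MCL-like transplant samples say non-MCL while their immunophenotype field says MCL-like, and that field was followed. Most tumours grew in the spleen. Exceptions were MCL-like replicate 1, which was mesenteric, and several non-MCL tumours: Ccnd2 non-MCL replicate 1 and p53-only replicate 4 were mediastinal, p53-only replicate 6 was a thymoma, and p53-only replicates 5 and 7 were labelled only as lymphoma. Ages were not among the labels used here.

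B1 cells are a self-renewing B cell population, formed largely from fetal and neonatal precursors, that produces natural antibodies. Bhlhe41 is a basic helix-loop-helix repressor, also known as a component of the circadian clock, that B1a cells need for their development and upkeep. Arid3a is a DNA-binding protein of the ARID family whose forced expression turns adult precursors towards B1 cells. Lin28b is an RNA-binding protein of fetal progenitors that blocks maturation of let-7 microRNAs, and let-7 in turn represses Arid3a, so that Lin28b raises Arid3a early in life. Nfatc1 is a transcription factor that enters the nucleus on calcium signalling from the B cell receptor and is needed for B1a cells. Zbtb32 is a BTB zinc finger repressor that restrains B cell responses. Ahr, the aryl hydrocarbon receptor, is a transcription factor activated by ligands of dietary, microbial and environmental origin and is active in innate-like B cells.

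Library totals ran from 2693399 to 8146613 counts. B cell markers were present in every group, with the 9 markers summing to 3675 to 7757 CPM in the MCL-like primaries, 4258 to 6099 CPM in the Ccnd2 non-MCL primaries and 1554 to 5850 CPM in the p53-only mice. Of the 9, 2 were called higher in MCL-like primaries against all non-MCL mice and 1 against p53-only mice, with median log2 fold changes of 0.81 and 1.11. Of all genes, 2.84% and 2.95% were called higher in these comparisons, and the medians were -0.13 and -0.11. The markers did not all go 1 way, and 6 of the 9 had a positive log2 fold change in each of these comparisons. Ms4a1, which encodes CD20, was at 895 to 1975 CPM in MCL-like primaries and 5.22 to 647 CPM in non-MCL primary libraries. Cd79b, another of the 9, was at 577 to 720 CPM in MCL-like primaries and 224 to 1052 CPM in non-MCL primary libraries. The part of B cell content in the levels below was not tested. Libraries labelled Ccnd2 non-MCL were not alike. Primary replicate 3 had 39.2 CPM of Cd5, a surface marker of B1a cells, which is within the range of 24.1 to 47.0 CPM in MCL-like primaries, while replicates 1 and 2 had 0 and 0.600 CPM. The p53-only libraries had 0.200 to 21.6 CPM of Cd5. The part of T cells in the Cd5 values was not tested. Ccnd2 itself ran between 1181 and 2127 CPM across MCL-like primaries, between 451 and 1953 CPM across Ccnd2 non-MCL primaries, and between 5.49 and 1028 CPM across p53-only libraries. The 2 transplant libraries labelled Ccnd2 non-MCL had only 45.8 and 83.4 CPM of Ccnd2, below each Ccnd2 primary. Whether the counted 3' end is part of the transgene is not given in the sources used here, so Ccnd2 does not settle their genotype.

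Arid3a (chr10:79927043-79955018 of GRCm38, plus strand) was abundant in every MCL-like tumour. MCL-like primaries 1 to 4 had 425, 267, 443 and 404 CPM, the 3 Ccnd2 non-MCL primaries had 32.3, 29.97 and 205 CPM, and the p53-only mice had a lowest value of 30.7, a median of 43.3 and a highest value of 66.97 CPM. The means were 385 ± 80.0 CPM (SD, n = 4), 89.2 ± 101 CPM (n = 3) and 44.6 ± 13.5 CPM (n = 6). The lowest MCL-like mouse stood above the highest non-MCL mouse, which was Ccnd2 non-MCL replicate 3. Arid3a was at 484 ± 208 CPM (SD, n = 4 mice) in MCL-like transplants, with 250 CPM in the lowest library and 701 CPM in the highest. The transplants labelled Ccnd2 non-MCL had 64.3 and 17.0 CPM. In a bulk tumour, fewer cells of a type and less RNA per cell cannot be told apart. The order of group means was MCL-like transplants, MCL-like primaries, Ccnd2 non-MCL primaries, p53-only primaries and Ccnd2 non-MCL transplants, and only the step between MCL-like and non-MCL groups was larger than the spread on both sides.

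Since Lin28b acts on Arid3a through let-7, the mature let-7 sequences and the places they could pair with are shown before the levels of Lin28b. The 8 mouse let-7 5p microRNAs of RefSeq (GRCm38.p6) share the seed, bases 2 to 8, in capitals in 3 of them:
mmu-let-7a-5p: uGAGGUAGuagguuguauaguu
mmu-let-7d-5p: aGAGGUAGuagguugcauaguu
mmu-let-7g-5p: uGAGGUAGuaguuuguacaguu
The match to this seed (CTACCTC, read on the messenger strand) was searched in the longest annotated 3' UTR of each gene in GENCODE M21. Arid3a held 2 matches in 3082 bases, Lin28b 4 in 4445 bases and Bhlhe41 1 in 4609 bases, with the match in capitals in the windows below. At least 1 match was found in 9.03% of 21009 UTRs, and in 16.3%, 24.4% and 24.96% of UTRs of a length like that of Arid3a, Lin28b and Bhlhe41, in that order.
Arid3a site 1, chr10:79953894-79953923, plus strand: caaggcaagtttctttCTACCTCaggtctt
Arid3a site 2, chr10:79954721-79954750, plus strand: aagaaaaaactgttttCTACCTCtggtcag
Lin28b site 1, chr10:45381016-45381045, minus strand: cacccgggcgggaagtCTACCTCatgcaag
Lin28b site 2, chr10:45378642-45378671, minus strand: atatacttgttagtaaCTACCTCtgagttt
Lin28b site 3, chr10:45378470-45378499, minus strand: tgtttacagcacatggCTACCTCccagcta
Lin28b site 4, chr10:45377054-45377083, minus strand: gaaatgatggcaccgaCTACCTCttcaatc
Bhlhe41 site, chr6:145859204-145859233, minus strand: tataatatgctcactcCTACCTCaagtgcc
The letters CTACCTC were not found in the longest 3' UTR of Zbtb32, Nfatc1 or Ahr. A match is a description of the letters and not a measured site, and mature microRNAs were not measured in these libraries.

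Lin28b (chr10:45376620-45486395, minus strand) was highest in Ccnd2 non-MCL primaries and lowest in MCL-like tumours. MCL-like primaries 1, 2 and 3 had 0 counts, which allows up to 0.892, 0.633 and 0.950 CPM for these libraries, and replicate 4 had 14 counts or 3.76 CPM. All 3 Ccnd2 non-MCL primaries had Lin28b counts, 29, 92 and 57 of them, at 10.8, 27.6 and 6.997 CPM. The p53-only libraries held 0, 1, 4, 0, 0, 18 and 93 counts in replicates 1 to 7, so that the mice ran up to 18.1 CPM around a median of 0.631 CPM. Lin28b was thus detected in every Ccnd2 non-MCL primary, whereas counts above 10 in the other primary groups came from MCL-like replicate 4 and p53-only replicates 6 and 7.
These primary libraries also held a transcript of pre-B cells. Vpreb1, a surrogate light chain gene, was at 224 CPM in MCL-like replicate 4 against 0.892 to 1.90 CPM in MCL-like replicates 1 to 3, at 2424 to 5691 CPM in the 3 Ccnd2 non-MCL primaries, and at 458 and 2879 CPM in p53-only replicates 6 and 7. The reverse did not hold, since p53-only replicate 4 had 5132 CPM of Vpreb1 and 0 counts of Lin28b. The part of pre-B cells in the Lin28b values was not tested. All 6 MCL-like transplant libraries had 0 Lin28b counts, which allows up to 0.117 CPM over the group, although 2 of them came from the mouse of primary replicate 4. The transplants labelled Ccnd2 non-MCL, both from 1 primary mouse, had 50 and 1 counts, or 13.2 and 0.254 CPM. Vpreb1 was at only 2.91 and 0.763 CPM in these 2 libraries, so in transplants Lin28b was also seen with little Vpreb1. In the MCL-like transplants, without Lin28b counts, Vpreb1 was at 1.64 to 62.7 CPM. Intervals and limits for counts cover counting error only.

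Bhlhe41 (chr6:145858243-145865558, minus strand) was even across MCL-like primaries, at 154, 133, 181 and 169 CPM. Ccnd2 non-MCL primaries had 0.743, 0 and 40.6 CPM, the last again in replicate 3. The p53-only libraries were split into a higher set of 51.0, 56.7, 61.3 and 42.7 CPM in replicates 1, 3, 5 and 6 and a lower set of 9.58, 3.57 and 2.34 CPM in replicates 2, 4 and 7. The pair of libraries from 1 p53-only mouse was split between these sets, with 9.58 CPM in the spleen (replicate 2) and 61.3 CPM in the other tumour (replicate 5). Group means were 159 ± 20.8 CPM for the 4 MCL-like mice, 13.8 ± 23.2 CPM for the 3 Ccnd2 non-MCL mice and 30.5 ± 23.6 CPM for the 6 p53-only mice (SD), and every MCL-like mouse was above every non-MCL mouse. MCL-like transplants had 63.3 to 235 CPM. The transplants labelled Ccnd2 non-MCL had 86.5 and 37.1 CPM, so that Bhlhe41 was present in these 2 libraries, in which Zbtb32 was nearly absent. The order of means was MCL-like transplants, MCL-like primaries, Ccnd2 non-MCL transplants, p53-only and Ccnd2 non-MCL primaries, and the last 2 overlapped.

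Zbtb32 (chr7:30589681-30598909, minus strand) had 222, 218, 110 and 146 CPM in MCL-like primaries, 1.49, 3.00 and 75.7 CPM in Ccnd2 non-MCL primaries, and 0 to 26.2 CPM in p53-only mice with a median of 2.95 CPM. The means of these groups were 174 ± 54.8, 26.7 ± 42.4 and 7.35 ± 10.1 CPM (SD, n = 4, 3 and 6 mice). Among the primaries, MCL-like mice lay above all others, and Ccnd2 non-MCL replicate 3 was the only non-MCL mouse above 26.2 CPM. MCL-like transplants had 75.7 to 219 CPM. The transplants labelled Ccnd2 non-MCL had 1 count each, at 0.265 and 0.254 CPM. The 2 Ccnd2 non-MCL groups and the p53-only group could not be placed in order beyond their spread.

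Bhlhe41 and Zbtb32 have promoter entries in RefSeq, and because both were high in the same tumours their sequences are shown, from 250 bases before to 50 after the annotated start. Capitals mark the E-box CACGTG, which proteins of the Bhlhe41 family bind, and the core GCGTG of Ahr response elements, each searched on both strands.
Bhlhe41, chr6:145865371-145865670 of GRCm38.p6, minus strand: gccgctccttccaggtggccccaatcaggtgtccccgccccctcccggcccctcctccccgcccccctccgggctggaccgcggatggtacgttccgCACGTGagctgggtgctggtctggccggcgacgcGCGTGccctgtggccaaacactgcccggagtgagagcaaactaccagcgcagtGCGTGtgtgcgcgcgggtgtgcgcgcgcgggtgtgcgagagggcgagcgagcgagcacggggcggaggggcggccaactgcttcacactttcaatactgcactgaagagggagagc
Zbtb32, chr7:30598860-30599159 of GRCm38.p6, minus strand: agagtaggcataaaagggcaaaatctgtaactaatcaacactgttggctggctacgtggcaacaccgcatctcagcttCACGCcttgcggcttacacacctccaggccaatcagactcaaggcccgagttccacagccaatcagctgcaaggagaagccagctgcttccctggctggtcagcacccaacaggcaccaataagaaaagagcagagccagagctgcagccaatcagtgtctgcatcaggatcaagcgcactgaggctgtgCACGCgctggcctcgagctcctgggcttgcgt
The Bhlhe41 window held 1 E-box and 2 Ahr cores, with no overlap between them. The Zbtb32 window held 2 Ahr cores, both on the opposite strand, and the letters CACGTG were not in it. A second Zbtb32 entry of RefSeq, at chr7:30592893-30593192, held 0 matches to either motif. An E-box was present in 7.15% and an Ahr core in 32.4% of 32851 promoter windows of the same length. These are letter matches, and no binding was measured.

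Nfatc1 (chr18:80606205-80713071, minus strand) divided the MCL-like tumours. MCL-like primary 1, the mesenteric lymphoma, had 62.1 CPM, while replicates 2, 3 and 4 had 530, 348 and 414 CPM. Ccnd2 non-MCL primaries had 56.4, 31.2 and 146 CPM, and p53-only mice had 30.4 to 101 CPM with a median of 43.9 CPM. MCL-like replicate 1 therefore lay within the range of the non-MCL tumours. The same mouse was low again after transplantation: its 2 transplant libraries had 74.9 and 91.0 CPM, whereas the other 4 MCL-like transplants had 397, 421, 628 and 794 CPM. The transplants labelled Ccnd2 non-MCL had 46.6 and 107 CPM. Group means were 338 ± 199, 78.0 ± 60.6 and 51.9 ± 25.97 CPM (SD) for 4 mice with MCL-like tumours, 3 with Ccnd2 non-MCL tumours and 6 with p53-only tumours, and the last 2 did not differ beyond their spread.

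Ahr (chr12:35497974-35535038, minus strand) was low in the same MCL-like mouse as Nfatc1, while the order of the other mice differed between these genes. MCL-like primary 1 had 7 counts, at 2.08 CPM, and replicates 2, 3 and 4 had 30.2, 44.6 and 98.3 CPM. Ccnd2 non-MCL primaries had 2.23, 2.10 and 14.7 CPM and p53-only mice 0.254 to 5.47 CPM. The transplants of MCL-like primary 1 were again the lowest, with 3.96 and 2.82 CPM against 16.2 to 34.4 CPM in the other 4 MCL-like libraries, and the transplants labelled Ccnd2 non-MCL had 3.17 and 2.29 CPM. Arid3a, Bhlhe41 and Zbtb32 were not low in the primary tumour of this mouse, which had 425, 154 and 222 CPM of these 3 genes. In its transplants Bhlhe41 was the lowest of the 4 MCL-like mice, at 101 CPM over both libraries.

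**Figure D1:**
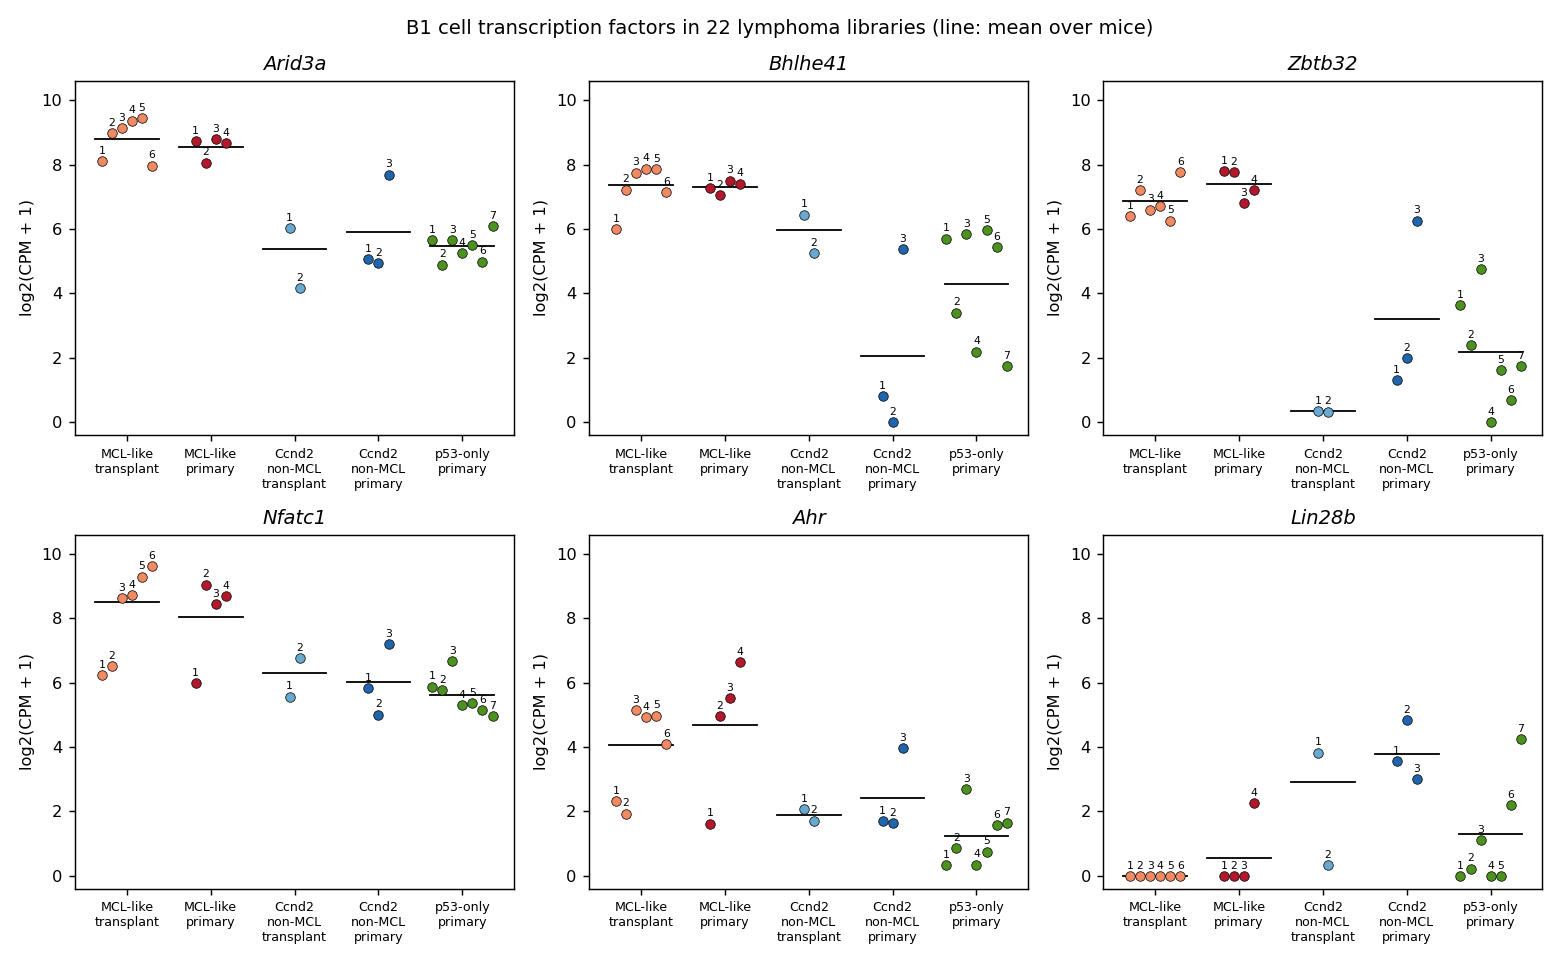
Levels of the 6 genes as log2(CPM + 1) in each of 22 libraries, with the replicate number at each point and a line at the mean of log2(CPM + 1) over the mice of a group. Arid3a, Bhlhe41 and Zbtb32 have their highest group means in MCL-like tumours, MCL-like primary 1 and its transplants 1 and 2 are low for Nfatc1 and Ahr, and Lin28b is at 0 in all MCL-like transplants.

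**Figure D2:**
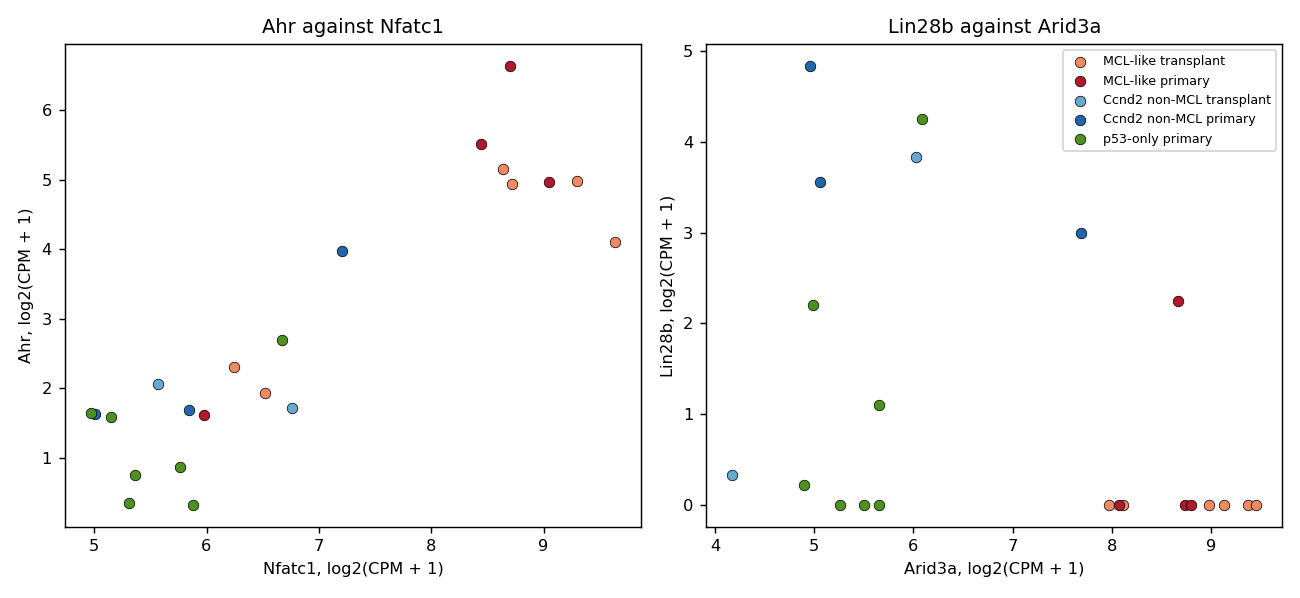
Ahr against Nfatc1 (left) and Lin28b against Arid3a (right), both axes in log2(CPM + 1), with 1 point per library coloured by group. MCL-like libraries with Nfatc1 at 348 CPM or more are also those with Ahr at 16.2 CPM or more, and of the 10 MCL-like libraries only primary 4, at 3.76 CPM, has any Lin28b.

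MCL-like primaries were first compared with p53-only primaries, from which they differ in both genotype and immunophenotype. Arid3a, Nfatc1, Ahr and Zbtb32 rose in MCL-like tumours by edgeR's quasi-likelihood test with Benjamini-Hochberg adjustment over 12967 genes. These were 4 of 6 genes, beside 2.95% of all genes tested that were called higher, and none of the 6 was called lower, beside 2.86% of all genes and 5.81% in either direction. The 6 genes and the lists below were chosen with earlier results of these data known. Their shares beside those of all genes, here and below, are therefore a description. The log2 fold change of Arid3a was 3.21 (SE 0.47, adjusted p = 0.00518), that of Nfatc1 2.74 (SE 0.54, adjusted p = 0.0136), that of Ahr 4.57 (SE 0.95, adjusted p = 0.0172) and that of Zbtb32 4.65 (SE 1.17, adjusted p = 0.0370). Bhlhe41 had a log2 fold change of 2.43 (SE 1.02, edgeR adjusted p = 0.148), and Lin28b one of -1.99 (SE 1.59, edgeR adjusted p = 0.434). Lin28b had too few counts for a fit on these 2 groups alone. The 4 MCL-like and 6 p53-only mice did not overlap for 3 of the 6, Arid3a, Bhlhe41 and Zbtb32, which were higher, beside 3.83% of all genes, and 0 of the 6 were lower in every mouse, beside 7.12%. Bhlhe41 thus separated the mice completely without passing the test, whereas Nfatc1 and Ahr passed it with MCL-like replicate 1 inside the p53-only range.

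Against all 9 non-MCL primaries together, the same 4 of 6 genes rose in the 4 MCL-like mice and 0 fell, beside 2.84% of genes called higher, 2.68% called lower and 5.52% called in either direction. The log2 fold changes were 2.83 for Arid3a (SE 0.44, adjusted p = 0.00561), 2.55 for Nfatc1 (SE 0.47, adjusted p = 0.0108), 3.70 for Ahr (SE 0.85, adjusted p = 0.0253) and 3.79 for Zbtb32 (SE 1.02, adjusted p = 0.0446), by the edgeR test. Bhlhe41 had 2.74 (SE 0.91, edgeR adjusted p = 0.0841) and Lin28b -2.99 (SE 1.65, edgeR adjusted p = 0.271). Arid3a, Bhlhe41 and Zbtb32, 3 of 6, were higher in every MCL-like mouse than in every non-MCL mouse, beside 1.82% of genes, and 0 were lower in every one, beside 2.79%. With limma-voom in place of edgeR, Bhlhe41 passed in both comparisons (adjusted p = 0.0282 against all non-MCL and 0.0356 against p53-only mice). When only spleen tumours were kept (3 mice with MCL-like tumours, 2 from the Ccnd2 non-MCL group and 3 p53-only mice), none of the 6 passed in either comparison, and the adjusted p of Arid3a was 0.127 against all non-MCL and 0.0808 against p53-only mice at log2 fold changes of 2.39 and 3.08. The Zbtb32 call against all non-MCL mice was kept in 2 of the 13 fits that left out 1 mouse, with adjusted p from 0.00987 to 0.101, and that of Ahr was lost without MCL-like replicate 2, 3 or 4 (adjusted p = 0.0525, 0.0628 and 0.0997). Against p53-only mice the Zbtb32 call was kept in 5 of the 13 such fits (adjusted p 0.0200 to 0.0809) and the Ahr call was lost without MCL-like replicate 4 (adjusted p = 0.0651), while Arid3a and Nfatc1 were called in 13 of 13 in both comparisons. Without the tumours whose library names begin with oTP, a prefix that the labels do not explain and that no MCL-like library has, Nfatc1 and Ahr were not called against p53-only mice (edgeR adjusted p = 0.0920 and 0.0979).

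MCL-like primaries and Ccnd2 non-MCL primaries have the same genotype and differ in immunophenotype. None of the 6 genes was called by edgeR here, where 40 of 12967 genes were (0.308%, with 0.0617% higher and 0.247% lower), and 5 of the 6 had an unadjusted p under 0.05, as did 2175 of all genes tested. The log2 fold changes were 2.28 for Arid3a (95% interval 1.04 to 3.53, adjusted p = 0.0912), 2.23 for Nfatc1 (0.78 to 3.68, adjusted p = 0.126), 3.67 for Bhlhe41 (0.65 to 6.68, adjusted p = 0.204), 2.80 for Ahr (0.36 to 5.24, adjusted p = 0.227), 2.89 for Zbtb32 (-0.16 to 5.94, adjusted p = 0.323) and -4.00 for Lin28b (-7.91 to -0.09, adjusted p = 0.286). Arid3a, Bhlhe41 and Zbtb32 were higher in each of the 4 MCL-like mice than in each of the 3 Ccnd2 non-MCL mice, 3 of 6 genes beside 5.66% of all genes. Lin28b was lower in each, 1 of 6 beside 10.5%. These comparisons share the same 4 MCL-like mice.

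Ccnd2 non-MCL replicate 3 held the highest level in its group of each gene except Lin28b, of which it had the lowest. Without it, Arid3a was called against the remaining 2 Ccnd2 non-MCL mice, with a log2 fold change of 3.77 (edgeR adjusted p = 0.00513). Without the oTP tumours, which include this replicate, 4 of the 6 genes were called: Arid3a at 3.74 (adjusted p = 0.00358), Bhlhe41 at 8.85 (adjusted p = 0.00449), Zbtb32 at 6.37 (adjusted p = 0.00691) and Nfatc1 at 3.03 (adjusted p = 0.0497), by the edgeR test. DESeq2 called Arid3a and Nfatc1 on all mice (adjusted p = 0.00310 and 0.0147). More genes were also called among all genes tested: 552 without the oTP tumours and 847 with DESeq2, against 40 in the main fit.

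Between Ccnd2 non-MCL and p53-only primaries, which differ in the transgene, edgeR called none of the 6 genes and 0 of 12967 genes in all (0.00%). At an unadjusted p under 0.05 there were 1330 genes, none of them among the 6, and DESeq2 called 119 and limma-voom 1. The mice of the 2 groups overlapped for all 6, beside 1.72% of genes higher and 1.58% lower in every Ccnd2 non-MCL mouse. The intervals were wide: the log2 fold change was 0.93 for Arid3a (95% interval -0.11 to 1.97), 1.76 for Zbtb32 (-0.74 to 4.27), 0.51 for Nfatc1 (-0.72 to 1.73), 1.77 for Ahr (-0.29 to 3.84), 2.01 for Lin28b (-1.14 to 5.16) and -1.24 for Bhlhe41 (-3.81 to 1.33). Ahr had too few counts for a fit on these 2 groups alone, so its value rests on the fit that also held the MCL-like mice. Without Ccnd2 non-MCL replicate 3, Arid3a, Zbtb32 and Nfatc1 had the other sign, at -0.51, -1.72 and -0.27.

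**Figure D3:**
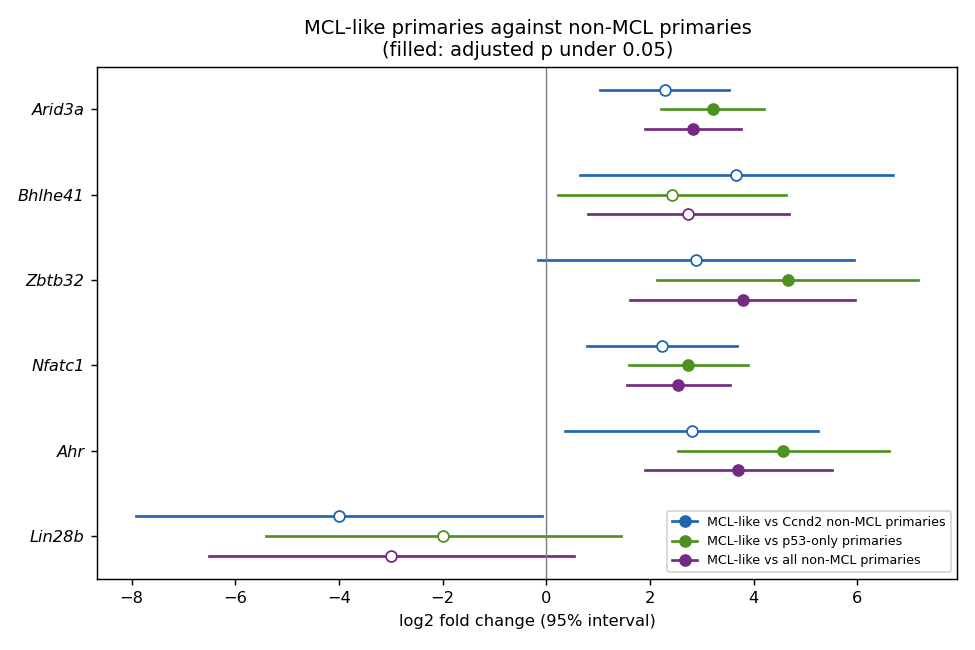
Log2 fold changes of the 6 genes in MCL-like primaries (4 mice) against Ccnd2 non-MCL (3 mice), p53-only (6 mice) and all non-MCL primaries (9 mice), with 95% intervals from edgeR. Filled points have an adjusted p under 0.05, which are Arid3a, Zbtb32, Nfatc1 and Ahr against the p53-only and all non-MCL groups.

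Transplantation shows whether the levels persist in tumours grown in new hosts. In the 3 mice with both an MCL-like primary and transplants, compared within mouse, edgeR called none of the 5 genes that could be tested and 0 of 12020 genes in all (0.00%), with 656 genes at an unadjusted p under 0.05, none of the 5 among them, 31 called by DESeq2 and 0 by limma-voom. The values of the 3 mice at each stage overlapped for all 5, beside 2.84% of genes higher and 4.23% lower in every transplanted mouse. The log2 fold change of transplants over primaries was 0.21 for Arid3a (95% interval -0.63 to 1.04), 0.07 for Bhlhe41 (-0.73 to 0.87), -0.41 for Zbtb32 (-1.16 to 0.35), 0.43 for Nfatc1 (-0.29 to 1.14) and -0.64 for Ahr (-1.55 to 0.26). Every one of these intervals included 0. Lin28b was below the count filter. Transplants of primary 4 had 34.4 and 29.5 CPM of Ahr against 98.3 CPM in their primary tumour, and 559 and 660 CPM of Arid3a against 404 CPM. The 2 transplant libraries of primary 1 were unlike each other in Bhlhe41, with 63.3 and 149 CPM against 154 CPM in the primary tumour.

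**Figure D4:**
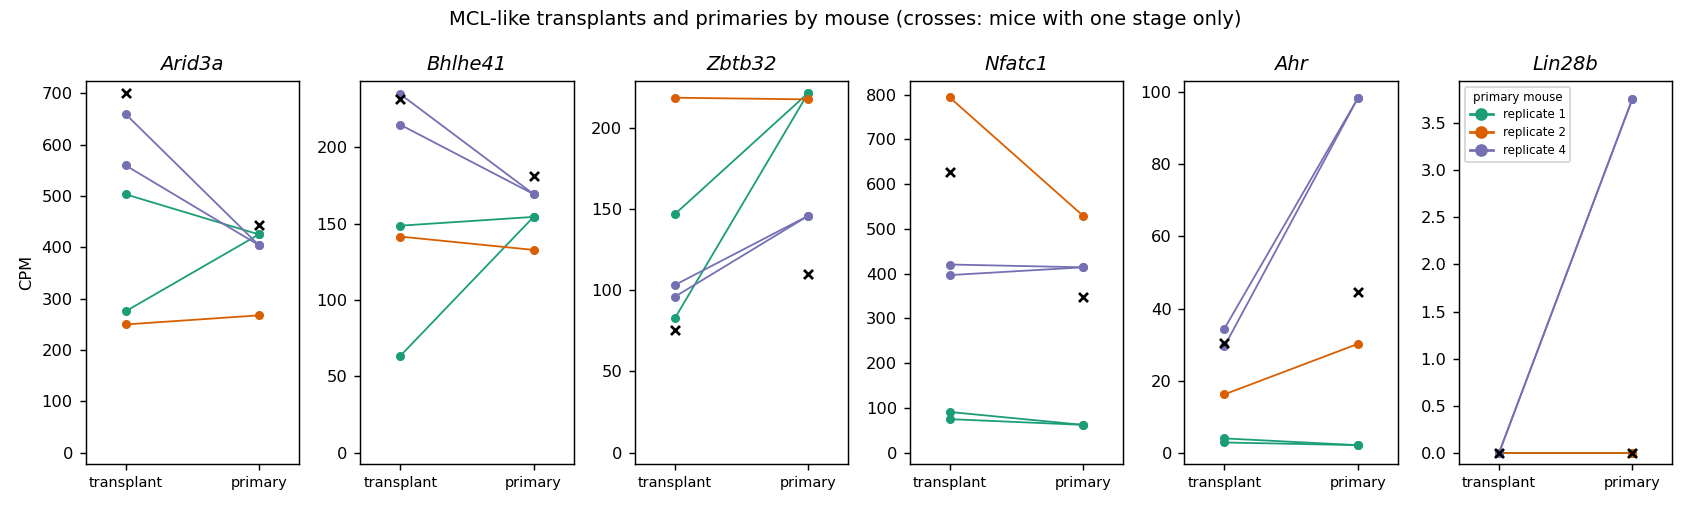
CPM of the 6 genes in MCL-like transplants (left) and primaries (right), with lines joining the libraries of each of 3 mice and crosses for mice seen at 1 stage only. The mouse of primary 1 is the lowest for Nfatc1 and Ahr at both stages, and the mouse of primary 2 the highest for Nfatc1, at 794 CPM in the transplant and 530 CPM in the primary tumour.

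RNA of other cells in the tumours is relevant because T cells and NK cells can express Nfatc1, Zbtb32 and Ahr. The 12 T cell markers summed to 306 to 570 CPM among the MCL-like primaries. The sums were 53.8 to 163 CPM among the Ccnd2 non-MCL primaries and 15.7 to 632 CPM among the p53-only mice. None of the 12 was called in any of the 5 comparisons. All 12 had positive log2 fold changes in MCL-like primaries against Ccnd2 non-MCL, p53-only and all non-MCL mice. Their medians were 3.15, 0.9996 and 1.46, in that order, beside -0.04, -0.11 and -0.13 for all genes. Against Ccnd2 non-MCL mice, 3 of the 12 were higher in every MCL-like mouse, beside 5.66% of all genes. The part of T cells in the levels of the 6 genes was not tested. In MCL-like transplants the T cell sum was 83.03 to 119 CPM. Zbtb32 and Nfatc1 were at 126 ± 63.3 and 478 ± 308 CPM (SD, n = 4 mice) in the same tumours. Ahr averaged 20.5 ± 13.4 CPM in MCL-like transplants against 43.8 ± 40.4 CPM in MCL-like primaries, and in the 3 mice with both stages 0 of 12 T cell markers had a positive log2 fold change, with a median of -2.17. The 7 NK and innate lymphoid markers summed to 26.2 to 158 CPM among MCL-like primaries, 11.1 to 82.7 CPM among Ccnd2 non-MCL primaries and 5.07 to 446 CPM among p53-only mice, and in MCL-like transplants to 1.26 to 20.8 CPM. The 10 macrophage markers summed to 570 to 1295, 462 to 1631 and 210 to 1464 CPM for the same 3 groups. The 6 erythroid markers summed to 17550 to 79510 CPM for MCL-like, 2365 to 22780 CPM for Ccnd2 non-MCL and 65.6 to 28980 CPM for p53-only mice, again with no call. Their part in the CPM of the 6 genes was not tested, and in MCL-like transplants, with erythroid sums of 217 to 60830 CPM, Arid3a averaged 484 CPM and Bhlhe41 175 CPM. The 6 pre-B markers summed to 37.8 to 308 CPM for MCL-like, 3903 to 8383 CPM for Ccnd2 non-MCL and 164 to 8284 CPM for p53-only mice. Of these markers, 3 fell against all non-MCL mice, beside 2.68% of all genes called lower. No defining marker of these 5 cell types was at 0 over all mice of a primary group.

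Relatives and partners of the 6 genes formed a list of 15, of which 9 had counts enough to be tested. Zbtb20, a BTB zinc finger repressor related to Zbtb32, rose in MCL-like primaries against all non-MCL mice by 1.98 log2 units (edgeR adjusted p = 0.0127) and against p53-only mice by 1.92 (adjusted p = 0.0240). Its levels were 770 ± 359 CPM in MCL-like and 203 ± 105 CPM in all non-MCL primaries. MCL-like transplants had 407 ± 171.5 CPM (SD, n = 4 mice). The transplants labelled Ccnd2 non-MCL, from 1 primary mouse, had 2678 CPM together, above the highest MCL-like primary mouse at 1114 CPM. Arid3b, the close relative of Arid3a, rose against p53-only mice, at 137 ± 86.8 CPM against 41.5 ± 24.3 CPM (log2 fold change 1.78, edgeR adjusted p = 0.0273). Arid3b and Zbtb20 were the 2 members called higher against p53-only mice, with 0 called lower, and Zbtb20 the 1 member called against all non-MCL mice, beside 2.95% of all genes called higher and 2.86% lower in the p53-only comparison and 2.84% higher in the other. The median log2 fold change of the 9 was 0.92 against p53-only mice beside -0.11 for all genes tested. Other relatives had values without a call: Nfatc3 was at 414 ± 60.9 CPM in MCL-like and 304 ± 101 CPM in all non-MCL primaries, Nfatc2 at 11.4 ± 2.17 and 4.14 ± 4.43 CPM, and Bhlhe40, the relative of Bhlhe41, at 8.72 ± 3.22 and 8.19 ± 11.7 CPM.

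Of 13 genes tied to Bhlhe41, Zbtb32 or Arid3a in B cells, all were tested, and 1 was called higher against all non-MCL mice and 1 higher and 1 lower against p53-only mice, beside 2.84%, 2.95% and 2.86% of all genes. Il5ra, the interleukin 5 receptor chain whose expression in B1 cells depends on Bhlhe41, was at 135 ± 93.0 CPM in MCL-like primaries and 6.43 ± 12.6 CPM in all non-MCL primaries, a rise of 4.43 on the log2 scale (edgeR adjusted p = 0.0149). Against p53-only mice, at 2.29 ± 1.53 CPM, it rose by 5.95 (edgeR adjusted p = 0.00599), and MCL-like transplants had 124 ± 36.5 CPM (n = 4 mice). The gene called lower was Myc, which drives growth, at 16.3 ± 8.81 CPM in MCL-like and 104 ± 96.5 CPM in p53-only primaries (log2 fold change -2.60, edgeR adjusted p = 0.0447). Ciita, the activator of MHC class II genes that Zbtb32 helps to repress in plasma cells, was at 17.7 ± 6.85 CPM in MCL-like and 8.81 ± 11.98 CPM in all non-MCL primaries (edgeR adjusted p = 0.517). Against Ccnd2 non-MCL primaries alone, at 1.20 ± 1.08 CPM, the mice did not overlap and the log2 fold change was 3.898 without a call (edgeR adjusted p = 0.144). Among all genes, 5.66% were higher in every MCL-like mouse than in every Ccnd2 non-MCL mouse.

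Of the 14 Ahr targets and feedback genes, 5 had counts enough to be tested. Of these, 1 was called higher against all non-MCL and against p53-only mice, beside 2.84% and 2.95% of all genes. Tiparp, an ADP-ribosyltransferase induced by Ahr that limits its activity, was at 75.7 ± 23.7 CPM in MCL-like and 27.6 ± 8.86 CPM in all non-MCL primaries (log2 fold change 1.52, edgeR adjusted p = 0.0135) and rose by 1.41 against p53-only mice (edgeR adjusted p = 0.0268). MCL-like transplants had 102 ± 25.3 CPM. Cyp1a1, the best known Ahr target, was at or near 0 in every group. It had 0 counts in every MCL-like primary and transplant library and in the transplants labelled Ccnd2 non-MCL. Its summed counts were 1 over the Ccnd2 non-MCL primaries and 6 over the p53-only mice. The other 4 tested genes of this list were not called.

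Of 27 genes of calcium, calcineurin and NFAT signalling, 26 were tested, and 1 was called in each of these comparisons, beside 5.81% of all genes against p53-only mice and 5.52% against all non-MCL mice, a share near the background. It was Itpr1, a calcium channel of the endoplasmic reticulum. It rose by 1.75 on the log2 scale against p53-only mice (edgeR adjusted p = 0.00910) and by 1.496 against all non-MCL mice (edgeR adjusted p = 0.0145), with 190 ± 66.2 CPM over MCL-like, 58.2 ± 12.3 CPM over p53-only and 70.4 ± 33.2 CPM over all non-MCL mice. Rcan1, a calcineurin inhibitor induced by NFAT, was at 6.28 ± 0.91 CPM in MCL-like and 16.5 ± 6.58 CPM in p53-only primaries (log2 fold change -1.30, edgeR adjusted p = 0.0639) and was chosen after its values were seen. The median of the 26 was -0.20 against all non-MCL mice beside -0.13 for all genes tested, and -0.43 against Ccnd2 non-MCL mice beside -0.04. In that comparison 6 of the 26 were lower in every MCL-like mouse, beside 10.5% of all genes, and 0 were higher in every one, beside 5.66%.

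The clock list covered 14 genes, many of which Bhlhe41 represses, and 12 were tested. Nr1d1, a nuclear receptor repressor of the clock, fell by 4.29 on the log2 scale against all non-MCL mice (edgeR adjusted p = 0.0408), at 0.693 ± 0.942 CPM in MCL-like and 15.998 ± 17.3 CPM in all non-MCL primaries. It was the 1 gene of the 12 called, beside 2.68% of all genes called lower and 2.84% called higher in that comparison. None of the 12 had a positive log2 fold change against all non-MCL or p53-only mice, with medians of -0.55 and -0.62 beside -0.13 and -0.11 for all genes tested. The hour at which tumours were collected was not among the labels used here. MCL-like transplants had 0.571 ± 0.472 CPM of Nr1d1, and the 2 transplants labelled Ccnd2 non-MCL had 0.907 CPM together.

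The list of the let-7 axis and the fetal programme held 15 names, 13 of them in the count table, and 7 were tested. Hmga1, a chromatin protein and known let-7 target, fell by 3.35 on the log2 scale in MCL-like against p53-only primaries (edgeR adjusted p = 0.0476), at 3.86 ± 1.91 CPM against 43.0 ± 38.3 CPM. It was the 1 gene of the 7 called, beside 2.86% of all genes called lower in that comparison. Igf2bp2, an RNA-binding protein of the fetal programme, was at 0.506 ± 0.587 CPM over MCL-like mice and 13.1 ± 7.84 CPM over Ccnd2 non-MCL mice, which did not overlap (log2 fold change -4.60, edgeR adjusted p = 0.0784). Among all genes, 10.5% were lower in every MCL-like mouse than in every Ccnd2 non-MCL mouse. In the remaining comparisons, MCL-like against Ccnd2 non-MCL primaries, Ccnd2 non-MCL against p53-only primaries and transplants against primaries, none of the genes of these 6 lists was called by edgeR.

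**Figure D5:**
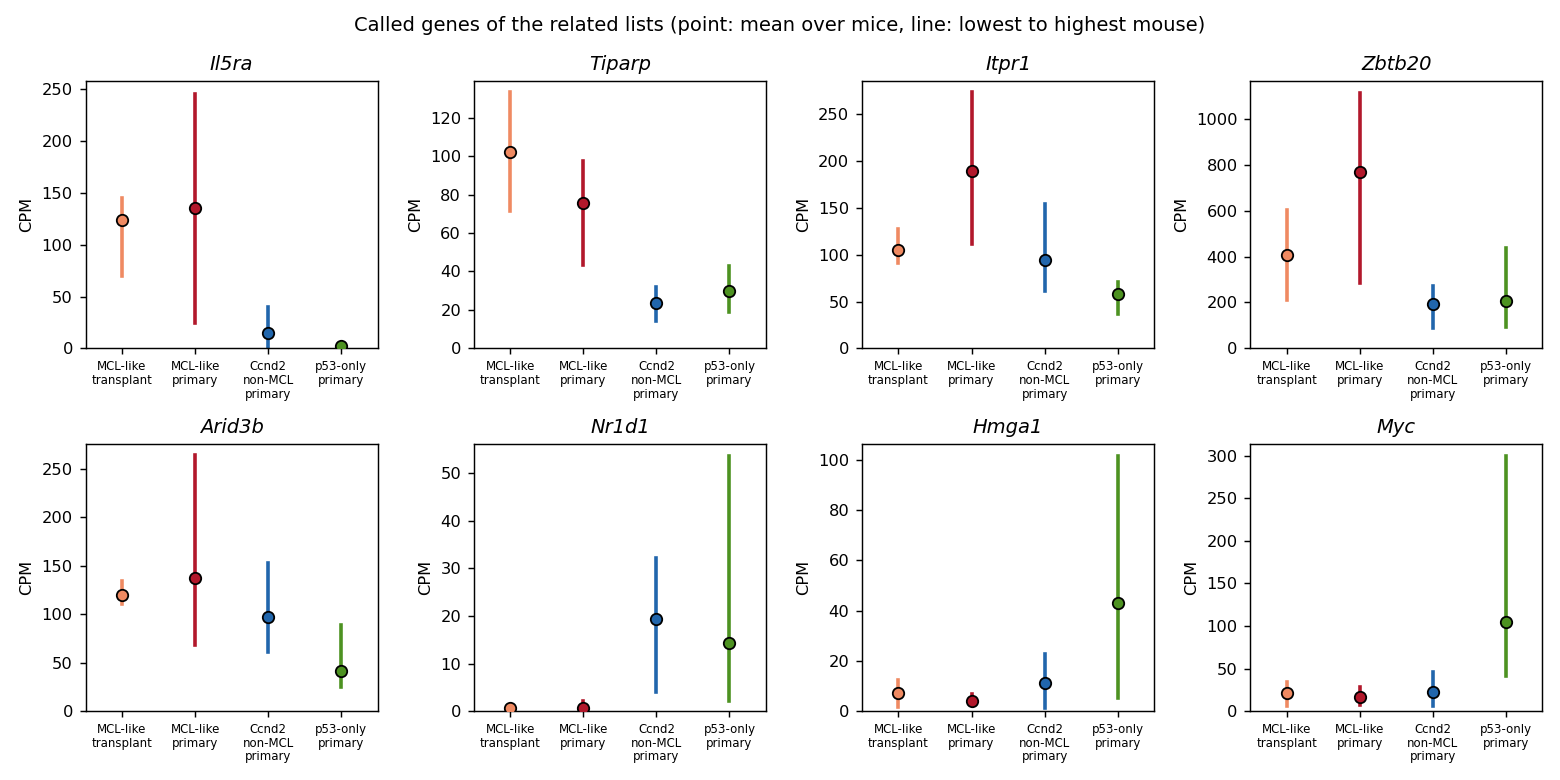
CPM of 8 called genes from the lists of relatives, targets and partners in MCL-like transplants, MCL-like primaries, Ccnd2 non-MCL primaries and p53-only primaries, with the mean over mice as a point and a line between the lowest and highest mouse. Il5ra, Tiparp, Itpr1, Zbtb20 and Arid3b have their highest primary mean in MCL-like tumours, and Nr1d1, Hmga1 and Myc their lowest. The transplants labelled Ccnd2 non-MCL are not shown.

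The genes with the pattern most like each of the 6 were sought among 9366 genes with at least 10 CPM in a group, by the root mean square (RMS) difference of centred log2(CPM + 1) over 18 samples, each being 1 mouse at 1 stage. The closest to Arid3a was Anks1b, an ankyrin repeat protein, at 0.46, followed by Cd9, a tetraspanin found on B1 and marginal zone B cells, at 0.64 and Cyp11a1, the first enzyme of steroid synthesis, at 0.65. Cd9 averaged 38.2 CPM over MCL-like, 8.36 CPM over Ccnd2 non-MCL and 2.93 CPM over p53-only mice. The closest to Zbtb32 were Sox5, a transcription factor, at 1.10, Ebi3, a cytokine subunit, at 1.13 and Slc39a4, a zinc importer, at 1.15. Bhlhe41 was closest to Sspn, a membrane protein, at 0.91, then to Upb1 at 1.247 and Hepacam2 at 1.28. Nfatc1 was closest to Crtam at 0.62, Nab2 at 0.64 and Rundc3a at 0.68.

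Among the 6 themselves, Nfatc1 and Ahr were the most alike, with an RMS difference of 0.86 that placed Nfatc1 at rank 4 for Ahr, after Trim40 at 0.69, Cyp11a1 at 0.78 and Crim1 at 0.85. Cyp11a1 was among the 3 closest genes of both Arid3a and Ahr. Arid3a was next, with RMS differences of 1.08 from Nfatc1 and 1.21 from Ahr. Arid3a, Bhlhe41 and Zbtb32 were further apart, with RMS differences of 1.61 between Arid3a and Bhlhe41, 1.52 between Arid3a and Zbtb32 and 1.93 between Bhlhe41 and Zbtb32. Lin28b was closest to Bend4 at 0.69, Plcl1 at 0.72 and Atp10a at 0.93, and Arid3a stood at rank 9171 of the 9366 genes. For scale, the median gene had an RMS difference of 1.73 from Lin28b, 1.87 from Arid3a, 2.58 from Bhlhe41 and 2.98 from Zbtb32. The measure is not scaled by the spread of a gene, so ranks depend on the gene they start from. Arid3a stood at rank 70 for Bhlhe41 and rank 39 for Zbtb32, while Bhlhe41 and Zbtb32 stood at ranks 1602 and 1055 for Arid3a. The samples share mice and groups, so these distances describe the libraries only.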

How the data were processed

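RNA of fresh lymphoma cells was made into libraries with a 3' end kit (QuantSeq reverse), per the labels' protocols, so transcripts were counted near their ends and length was not corrected for. Per the submitters' processing notes, FastQC and STAR were used, with build GRCm38. The read counter, strand setting, annotation and tool versions are not given in the sources used. Counts were deposited raw, as whole numbers for each Ensembl identifier, and entered the tests unchanged. Without a stated strand setting, reads of Gm43909 (120 counts in all libraries, opposite strand to Bhlhe41, 8353 counts) and Gm48236 (118 counts, opposite strand to Ahr, 1351 counts) could be mixed with those of the named genes, and Nfatc1 has an antisense gene, AC123818.1. Symbols and coordinates came from GENCODE M21 (GRCm38), which matched 52403 of 52636 identifiers. The sample column named oTP14 was matched by description, its title being oTP14b.

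CPM were computed here from counts and library totals, unscaled, per library or per mouse, and in fits per mouse. Libraries of 1 mouse at 1 stage were summed, and no pair of the 231 library pairs was alike within counting noise (smallest chi-square per degree of freedom 5.36). Tests used edgeR 4.0.16 in R 4.3.3 (quasi-likelihood, TMM, robust, default low-count filter, Benjamini-Hochberg over all genes tested), and calls were made below an adjusted p of 0.05. A single fit held the 13 primary mice in 3 groups, and a fit of 2 groups served MCL-like against all non-MCL. Each SE was derived from the fold change and its F statistic, and 95% intervals use the fit's degrees of freedom. Transplants were paired with primaries by the mouse named in the labels, and deviations of pairs correlated at 0.273, 0.276 and 0.368. P-values measure the spread between these mice. DESeq2 1.42.0 and limma-voom (limma 3.58.1) were alternatives. The edgeR fit was tested on simulated data in designs of 2 groups, for the 3 comparisons of MCL-like primaries. The fit of 3 groups, the paired fit and the alternatives were not simulated. Named genes were the 6, called genes of 6 lists (at most 4 a list) and the 3 nearest patterns of each. Values of Ciita, Nfatc2, Nfatc3, Bhlhe40, Igf2bp2, Cyp1a1, Rcan1, Cd5, Ccnd2 and Vpreb1 were added outside that rule. The members and lists were chosen with earlier results of these data known. Promoter and microRNA sequences are from RefSeq, with entries for 3 of the 6 promoters.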

Additional observations from a re-analysis of the deposited data

Results flagged for a closer look

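In groups of 4 to 10 mice, 17 sets of values were searched for a mouse far from the rest, and 3 were found. Lin28b in MCL-like primary replicate 4, at 3.76 CPM, stood above 3 mice at 0 counts. Lin28b in p53-only replicate 7, at 18.1 CPM, stood above the other p53-only mice, whose next highest value was 3.59 CPM in replicate 6. Ahr in p53-only replicate 3, at 5.47 CPM from 19 counts, was the highest of the p53-only mice, and the same library had the highest p53-only values of Nfatc1 (101 CPM) and Zbtb32 (26.2 CPM). It also had the highest p53-only sums of T cell markers (632 CPM) and NK markers (446 CPM), whose part in these values was not tested. Chance flags about 1 in 20 groups of normally distributed values, a rate that need not hold for groups with many values at or near 0. With 3 of 4 mice at 0 counts, as for Lin28b in MCL-like primaries, any count in the remaining mouse is flagged. The cause was not tested.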

How the results depend on the processing

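Across the 3 comparisons of MCL-like primaries, Arid3a, Bhlhe41, Zbtb32, Nfatc1 and Ahr kept a positive log2 fold change under every alternative run, and Lin28b a negative one except against p53-only mice, where it was 1.06 without oTP tumours, 0.16 with name prefix as covariate and 1.38 in spleen only. Between Ccnd2 non-MCL and p53-only primaries, signs turned without oTP tumours for Arid3a (-0.51), Zbtb32 (-2.65), Nfatc1 (-0.76) and Ahr (-0.018), and Bhlhe41 was called there at -6.78 (edgeR adjusted p = 0.0284). Leaving out 1 mouse, their ranges were -0.51 to 1.37 for Arid3a, -1.72 to 2.80 for Zbtb32 and -0.27 to 0.90 for Nfatc1, each lowest without Ccnd2 non-MCL replicate 3. In transplants against primaries they turned for Bhlhe41 with library totals only (-0.038), and leaving out 1 mouse gave -0.16 to 0.42 for Arid3a and -0.28 to 0.42 for Bhlhe41, the lowest without MCL-like replicate 4. Zbtb32 was not called with no low-count filter or the prefix covariate, and against all non-MCL mice also not with library totals only or in the fit on 3 groups (edgeR adjusted p = 0.0501 and 0.0536), while Ahr was not called against all non-MCL mice with no low-count filter or the prefix covariate, or against p53-only mice with limma-voom (adjusted p = 0.0528).

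The count of all genes called against Ccnd2 non-MCL mice (40) was 22 with RLE scaling, 847 with DESeq2, 17 with limma-voom, 13 with each library apart, 552 without oTP tumours, 25 with the prefix covariate, 116 in spleen only, 371 in a fit on 2 groups, and 0 to 54 leaving out 1 mouse. Against p53-only mice (753) it was 1827 with DESeq2, 116 without oTP tumours, 289 with the prefix, 35 in spleen only, and 188 to 1117 leaving out 1 mouse. Against all non-MCL mice (716) it was 1750, 248, 187 and 37 under the same settings, and 176 to 1091 leaving out 1 mouse. A low-count filter on 2 groups, chosen after seeing the data, gave 685. Between Ccnd2 non-MCL and p53-only mice (0) it was 119 with DESeq2, 1 with limma-voom, 2 with no filter, 116 without oTP tumours, 41 in spleen only, and 0 to 8 leaving out 1 mouse. Between transplants and primaries (0) it was 31 with DESeq2, 35 with no filter, 0 to 14 leaving out 1 mouse, and 0 with no replicate block, so the pairing changed no call of the named genes. Calls split 382 higher and 371 lower against p53-only mice, against 404 and 259 with RLE scaling, 339 and 475 with library totals only and 506 and 255 with limma-voom. With library totals only, the split against all non-MCL mice was 309 and 439 rather than 368 and 348, the split against Ccnd2 non-MCL mice was 2 and 31 rather than 8 and 32, and the median of all genes moved to -0.16 there and to -0.10 in transplants against primaries. The cause of these shifts was not tested. Low counts limit Lin28b and Ahr most. Lin28b against p53-only mice and Ahr between the non-MCL groups had too few counts for the fit on 2 groups.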

Other observations

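The gene with the pattern closest to Bhlhe41 among 9366, Sspn, is also its neighbour in the genome (chr6:145931641-145965223 of GRCm38, plus strand). The start sites of these genes point away from each other, 66083 bases apart, with 0 protein-coding genes between them in GENCODE M21. Sspn had 134, 45.8, 32.6 and 112 CPM in MCL-like primaries 1 to 4 and 1.49, 1.20 and 18.8 CPM in Ccnd2 non-MCL primaries 1 to 3. The p53-only libraries split as they did for Bhlhe41, with 22.3, 31.4, 23.5 and 17.6 CPM in replicates 1, 3, 5 and 6 and 3.80, 2.75 and 3.70 CPM in replicates 2, 4 and 7. The transplants labelled Ccnd2 non-MCL had 95.8 and 45.0 CPM. Because Sspn was chosen for its likeness to Bhlhe41 over the same samples, its level in MCL-like tumours (81.1 ± 49.6 CPM in 4 MCL-like and 12.2 ± 10.9 CPM in 9 non-MCL primaries) is a description. Of 18 pairs of a gene and its 3 nearest patterns, 3 were on 1 chromosome, and only this pair were neighbours.

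The protein-coding neighbours of the other genes were then looked up, after these values were seen. Upk1a, next to Zbtb32 on the same strand (chr7:30603092-30612847), rose against all non-MCL primaries by 2.49 (edgeR adjusted p = 0.0230), at 8.24 ± 4.48 CPM in 4 MCL-like and 1.54 ± 1.06 CPM in 9 non-MCL mice, and by 2.49 against p53-only mice (edgeR adjusted p = 0.0413). It was not called against Ccnd2 non-MCL mice (log2 fold change 2.50, edgeR adjusted p = 0.156). Bves, next to Lin28b on the opposite strand (chr10:45335772-45372479), had 0, 0, 0 and 14 counts in MCL-like primaries 1 to 4, the same counts as Lin28b, and 11, 478 and 59 counts in Ccnd2 non-MCL primaries. It had 346 and 173 counts in p53-only replicates 6 and 7, the libraries with the most Lin28b in that group, at 18 and 93 counts. These genes did not go together in every library. P53-only replicate 4 had 16 counts of Bves and 0 of Lin28b. Replicate 1 of the transplants labelled Ccnd2 non-MCL had 1 count of Bves and 50 of Lin28b. The log2 fold change of Bves was -4.93 against all non-MCL mice (edgeR adjusted p = 0.129). Wdr18, Kmt2b, Ctdp1, Atp9b, Snx13 and Hace1, the other tested neighbours, had no call in the 3 comparisons of MCL-like primaries. Whether reads of neighbours were shared was not tested.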
